A study of Mus musculus with 6 samples.

Results

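The RGS genes code for regulators of G protein signalling. The 10 described here were taken by gene symbol from count tables of 23183 symbols, which hold 21 genes named *Rgs* in all: *Rgs1*, *Rgs2*, *Rgs3*, *Rgs4*, *Rgs5*, *Rgs10*, *Rgs14*, *Rgs16*, *Rgs18* and *Rgs19*. They were chosen with the comparison of treated and untreated tumours in view, so their values in that comparison are given as a description, with no test. RNA sequencing was done on tumours grown from UV2237M, a fibrosarcoma line of the mouse with the genotype given as wild type, 6 in all. No treatment was given to 3 of them (untreated). The treated group of 3 was dosed at day 1 and again at day 7 with GNC, gold nanoclusters that heat up under light, and irradiated with near-infrared light (NIR). The particles and the light were given together in the samples analysed here, so their parts cannot be told apart. The labels do not say whether each tumour came from its own animal, nor how long after the last irradiation it was taken, so any p-value measures only the spread between these samples.

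A receptor coupled to a G protein makes the alpha subunit exchange GDP for GTP, and the subunit signals until it hydrolyses the GTP. RGS proteins bind the active alpha subunit, mostly of the Gi and Gq classes, and speed that hydrolysis, which shortens the signal from chemokine, lipid and hormone receptors. Several RGS genes are transcribed in particular cells of a tumour, such as leukocytes or the mural cells of vessels, and some are switched on by the signals they later damp.

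The deposited counts summed to 4680295 to 8019294 per library. Values are CPM, counts per 1000000 counts of the library, with the library size adjusted by TMM, a correction for composition. Where 3 values are given for a group they are those of replicates 1, 2 and 3 in this order, and a fold change is that of treated over untreated tumours in edgeR's fit over the 12517 genes that passed its filter on low counts. Fibroblast markers (8 genes, *Col1a1* and *Vim* among them) summed to 26132.5 to 37688.3 CPM and none was at 0. *Col3a1* was the largest part of the sum, and untreated 2 was low in *Col1a1* (59.4 CPM, against 1974.8 to 4255.4 in the other libraries) and *Col1a2* (48.0 against 326.0 to 2239.7). Keratinocyte markers (6 genes) summed to 1229.8, 663.7 and 5.4 CPM without treatment and 20.6, 4.22 and 66.5 CPM with it. The groups overlapped only through untreated 3, and the 5 tested markers were all lower. Skeletal muscle markers (6 genes) summed to 75.5, 37.9 and 15.6 CPM without treatment and 18.8, 3.26 and 358.2 CPM with it, with overlap. Their 6 tested markers were all higher. The part of such tissue in the RGS values was not tested. Untreated 2 stood apart. Its mean distance to the other libraries on the log2 CPM scale was 1.25, against 0.634 to 0.755 for the others, and genes with GC-poor transcripts read high and GC-rich ones low in it (medians of 0.77 and -0.77 log2 in the lowest and highest bin of 5 by GC content). Where leaving out untreated 2 turned the direction of a named gene, the value without it is given. In a whole tumour, fewer cells of a type and less RNA per cell cannot be told apart.

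*Rgs16* was high in treated tumours, while *Rgs2*, *Rgs10* and *Rgs18* were low. *Rgs19* was slightly higher, *Rgs5* was higher than in untreated 1 and 3 but not untreated 2, *Rgs3* and *Rgs14* had overlapping groups, *Rgs1* depended on untreated 2, and *Rgs4* was near the detection limit. Of the 10 genes, 9 passed the filter and *Rgs4* did not. Among those 9, 5 had a log2 fold change above 0 and 4 below, with a median of 0.10, beside 0.00 over the tested genes. In 5 of the 9 the groups were separate, 2 with treated values above and 3 with treated values below, where 20.8% of the tested genes did not overlap (10.6% above and 10.2% below). Without untreated 2 they were separate in 6 of 9, 3 above and 3 below, with a background of 39.2% (19.6% above and 19.6% below). No RGS gene was called at a Benjamini-Hochberg adjusted p under 0.05 in edgeR's quasi-likelihood test, which called 0 of 12517 genes (0%). At an unadjusted p under 0.05 there were 3 of the 9 and 8.17% of the tested genes. A fold change of at least 2 in either direction was seen in 3 of the 9 and in 6.33% of the tested genes. DESeq2 called 1 of the 9, *Rgs16*, as higher (background 0.144% higher and 0.455% in either direction), and again without untreated 2 (0.896% and 2.13%), while limma-voom called 0. Since the genes were picked on this comparison, these counts are no support for a difference.

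**Figure D1:**
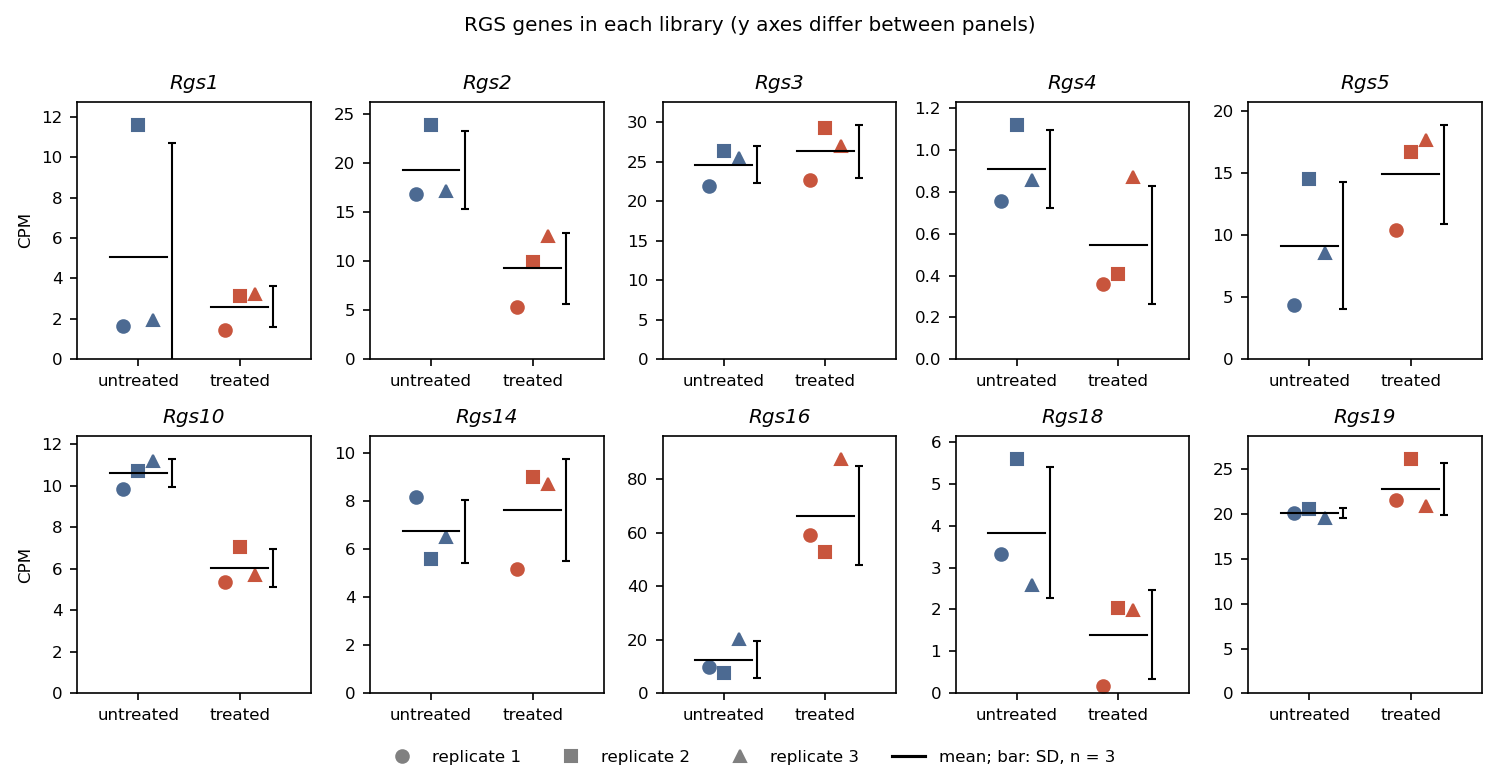
CPM (y axis, from 0, its own scale in each panel) of the 10 RGS genes in 3 untreated (blue) and 3 treated (red) libraries; symbols mark the replicate number, lines the means and bars the SD (n = 3; the bar of untreated *Rgs1* is cut at 0). The 3 treated values of *Rgs16* lie between 52.6 and 87.4 CPM, above the untreated ones, and those of *Rgs2*, *Rgs10* and *Rgs18* lie below the untreated ones.

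*Rgs16* (ENSMUSG00000026475.7, chromosome 1, 153740349 to 153745468, plus strand, mm10) codes for a small RGS protein that acts on Gi and Gq alpha subunits. It had 9.83, 7.59 and 20.4 CPM without treatment and 59.0, 52.6 and 87.4 CPM with it. The lowest treated value was well above the highest untreated one, and untreated 3 was the highest of the untreated libraries. The means were 66.3 ± 18.5 CPM with and 12.6 ± 6.82 without treatment (SD, n = 3), a log2 fold change of 2.38 ± 0.42 (SE), or 5.21-fold. It was 2.11 ± 0.34 without untreated 2 and ranged from 2.11 to 2.92 when each library was left out in turn. The counts behind it were 265 in the untreated and 1420 in the treated libraries.

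*Rgs2* (ENSMUSG00000026360.9, chromosome 1, 143999338 to 144004161, minus strand) codes for an RGS protein with a preference for Gq, known from the control of vascular tone. It had 16.9, 23.9 and 17.2 CPM without treatment and 5.36, 9.93 and 12.6 CPM with it. All 3 treated values were below the untreated ones, with treated 1 the lowest. The means were 9.28 ± 3.64 against 19.3 ± 3.94 CPM (SD, n = 3) and the log2 fold change was -1.04 ± 0.35, or -0.87 without untreated 2.

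The sequences before the starts of *Rgs16* and *Rgs2* are shown because these genes lay furthest apart among those with over 100 counts in each group and went in opposite directions. They are RefSeq promoter windows on GRCm38.p6 (mm10), 5′ to 3′ on the strand of the gene, cut where the GENCODE gene begins. Capitals mark GC boxes (GGGCGG on either strand; overlapping matches are joined).
Rgs16, chr1:153740103-153740348, plus strand: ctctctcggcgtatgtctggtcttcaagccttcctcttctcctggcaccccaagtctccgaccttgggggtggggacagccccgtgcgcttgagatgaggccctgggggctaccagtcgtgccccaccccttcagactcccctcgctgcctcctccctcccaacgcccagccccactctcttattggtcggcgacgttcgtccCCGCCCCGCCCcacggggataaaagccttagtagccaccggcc
Rgs2, chr1:144004162-144004399, minus strand: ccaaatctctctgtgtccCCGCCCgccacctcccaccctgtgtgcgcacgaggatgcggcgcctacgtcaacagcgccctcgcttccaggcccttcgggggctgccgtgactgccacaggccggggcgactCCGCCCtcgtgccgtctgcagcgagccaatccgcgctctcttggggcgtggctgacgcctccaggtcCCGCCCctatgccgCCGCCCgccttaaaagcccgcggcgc

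Both windows are rich in GC, at 66.4% for *Rgs16* and 72.4% for *Rgs2* over the 250 bases before the RefSeq start. The *Rgs16* window held 2 overlapping GC boxes, 47 to 37 bases before the RefSeq start (-47 to -42 and -42 to -37), and the *Rgs2* window held 4, where 32.7% of 32851 windows held at least 1. Neither held a cAMP response element (TGACGTCA, in 1.55% of windows), an AP-1 site (TGACTCA or TGAGTCA, in 4.46%), a CArG box (in 1.47%) or a TATA box (TATAAA, in 12.4%), on either strand. Only exact matches were sought, so variants of these elements were not counted. These matches only describe the letters in the windows. The table held windows for 7 of the 10 genes.

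*Rgs10* (ENSMUSG00000030844.11, chromosome 7, 128373621 to 128418758, minus strand) codes for one of the smallest RGS proteins, which acts on Gi alpha subunits and is known from microglia and macrophages. It had 9.83, 10.7 and 11.2 CPM without treatment and 5.36, 7.07 and 5.72 CPM with it. The libraries of each group lay close together, with a gap between the groups. The counts were 65, 48 and 91 without treatment and 30, 52 and 46 with it. Counting error is thus not small beside these spreads, and the closeness does not measure how alike the tumours were. The means were 6.05 ± 0.902 against 10.6 ± 0.677 CPM (SD, n = 3), a log2 fold change of -0.80 ± 0.25 that stayed between -0.93 and -0.73 when each library was left out in turn.

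*Rgs18* (ENSMUSG00000026357.3, chromosome 1, 144752683 to 144775435, minus strand) codes for an RGS protein of blood cells, best known from platelets and megakaryocytes. It had 3.33, 5.58 and 2.58 CPM without treatment and 0.179, 2.04 and 1.99 CPM with it. The treated values were below the untreated ones, but the gap between treated 2 and untreated 3 was small and treated 1 rested on 1 count. The other libraries had 15 to 25 counts, so counting error is large. The log2 fold change was -1.36 ± 0.70, or -1.01 without untreated 2 and -0.65 after a correction for GC content and length.

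*Rgs1* (ENSMUSG00000026358.13, chromosome 1, 144242296 to 144249242, minus strand), which codes for a brake on chemokine responses of lymphocytes, had 1.66, 11.6 and 1.96 CPM without treatment and 1.43, 3.13 and 3.23 CPM with it. The untreated mean was thus set by 1 library, and the log2 fold change of -0.89 ± 0.81 became 0.52 ± 0.49 without untreated 2. The groups overlapped with and without that library. The counts were 11, 52 and 16 without treatment and 8, 23 and 26 with it, so counting error is large here too.

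Macrophage markers moved with *Rgs2*, *Rgs10* and *Rgs18*, with Pearson's r of 0.94, 0.9 and 0.92 for the marker sum. Some other lists did so less closely. In the same order r was 0.74, 0.69 and 0.85 for dendritic cells and 0.72, 0.75 and 0.62 for mast cells. It was 0.68, 0.59 and 0.73 for T cells and 0.72, 0.5 and 0.69 for NK cells. It was negative for neutrophils, B cells and platelets and megakaryocytes. The 8 macrophage markers (*Adgre1*, *Csf1r*, *Cd68*, *C1qa*, *C1qb*, *C1qc*, *Mrc1* and *Fcgr1*) summed to 891.8, 1505.0 and 938.0 CPM without treatment and to 379.5, 711.5 and 564.1 CPM with it. Of the 8, 7 were lower and 1 was higher by fold change, and none was at 0. The summed level was lowest in treated 1, where *Rgs2*, *Rgs10* and *Rgs18* were also lowest, and highest in untreated 2, where *Rgs2* and *Rgs18* were highest.

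Taken per 100 CPM of the macrophage markers, a ratio added after the values were seen, the groups overlapped for each of these genes. *Rgs2* had 1.77 ± 0.165 in untreated and 1.68 ± 0.475 in treated tumours (SD, n = 3), *Rgs10* had 1.00 ± 0.255 and 1.14 ± 0.236, and *Rgs18* had 0.339 ± 0.0562 and 0.229 ± 0.161. The part of macrophages in the lower CPM was not tested.

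Markers of other blood cells are given by their ranges. T cell markers (8 genes) summed to 3.12 to 7.26 CPM in untreated and 1.25 to 4.10 in treated tumours, with *Cd3e* at 0 in every library. B cell markers (6 genes) summed to 1.56 to 2.33 and 1.97 to 2.86 CPM, with *Ms4a1* and *Pax5* at 0 in every library. NK cell markers (6 genes) summed to 1.82 to 5.13 and 1.61 to 2.49 CPM, highest in untreated 2 as *Rgs1* was. Markers of platelets and megakaryocytes (8 genes) summed to 22.2 to 46.9 CPM in untreated and 32.6 to 74.5 in treated tumours, with overlap, *Pf4* giving 5.75 to 55.0 CPM of it, and of the 4 tested markers 2 were higher and 2 lower. Mast cell markers (8 genes) summed to 35.5 to 68.5 CPM in untreated and 24.6 to 29.5 in treated tumours, without overlap. Of the 6 tested ones 1 was higher and 5 lower. Dendritic cell markers (7 genes) summed to 14.6 to 22.5 CPM in untreated and 11.1 to 18.8 in treated tumours, with overlap. Of their 3 tested ones 1 was higher and 2 lower. Neutrophil markers (7 of the 8 listed were in the tables) summed to 13.5 to 41.8 and 34.8 to 83.8 CPM, with overlap, and the 4 tested ones were all higher. Over the 6 libraries Pearson's r of *Rgs16* was 0.88 with the neutrophil and 0.84 with the endothelial marker sum. It was -0.95 with the mast cell and -0.85 with the macrophage marker sum. These were the strongest values among the marker lists. Others were -0.76 for dendritic cells, 0.75 for B cells and 0.69 for platelets and megakaryocytes. *Rgs16*, like *Rgs2*, *Rgs10* and *Rgs18*, was separate between the groups, so a list that differs between them easily reaches a strong r. The part of these cells in the RGS values was not tested.

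**Figure D2:**
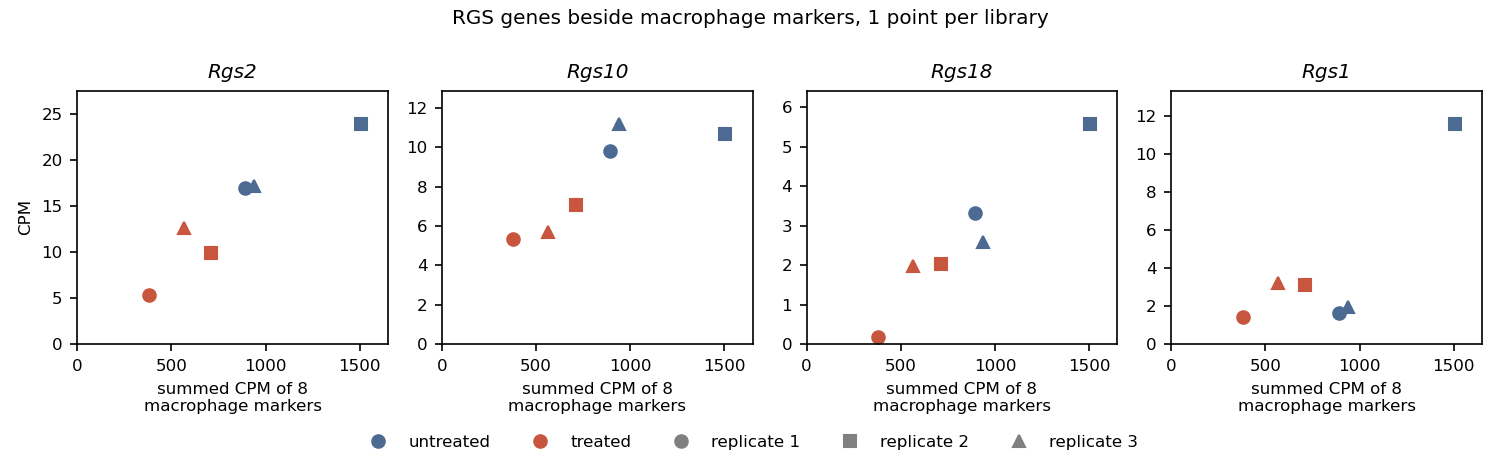
CPM of *Rgs2*, *Rgs10*, *Rgs18* and *Rgs1* (y axes) against the summed CPM of 8 macrophage markers (x axis) in each of the 6 libraries; blue, untreated; red, treated; symbols mark the replicate number. Treated 1, with the lowest marker sum (379.5 CPM), also has the lowest value of each of the 4 genes, and *Rgs1* is high in untreated 2 alone.

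*Rgs5* (ENSMUSG00000026678.10, chromosome 1, 169655501 to 169695813, plus strand), a marker of pericytes and vascular smooth muscle, had 4.39, 14.5 and 8.59 CPM without treatment and 10.4, 16.7 and 17.7 CPM with it. Untreated 2 lay within the treated range, and the other untreated values lay below it. The means were 14.9 ± 3.97 against 9.16 ± 5.08 CPM (SD, n = 3). The log2 fold change of 0.72 ± 0.45 was 1.19 ± 0.36 without untreated 2 and 0.37 ± 0.39 without untreated 1.

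The 8 pericyte markers, *Rgs5* not among them, summed to 164.7 to 738.7 CPM in untreated and 290.4 to 618.8 in treated tumours and overlapped. Of the 6 tested markers 4 were higher and 2 lower, and Pearson's r of *Rgs5* with the sum was -0.59. Most of the sum was *Pdgfrb*, which fibroblasts also express. It had 689.7, 152.0 and 650.2 CPM without treatment and 444.6, 555.1 and 220.6 CPM with it. *Cspg4* had 24.5, 4.46 and 10.7 CPM without treatment and 12.5, 12.5 and 10.9 CPM with it. Without these genes, a subset chosen after the values were seen, the sum was 24.5, 8.26 and 25.8 CPM in untreated tumours. In treated tumours it was 20.2, 51.1 and 58.9 CPM, with overlap, and this sum depends on that choice. *Rgs5* and this sum were both higher in treated 2 and 3, and untreated 2 was low in the sum and high in *Rgs5*. Endothelial markers (8 genes) summed to 90.4 to 164.9 and 130.2 to 209.4 CPM and smooth muscle markers (8 genes) to 49.8 to 66.4 and 38.1 to 122.5 CPM, both with overlap. The part of vessel cells in *Rgs5* was not tested.

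*Rgs4* (ENSMUSG00000038530.11, chromosome 1, 169741477 to 169747642, minus strand), which acts on Gi and Gq and is known from brain and heart, had 17 counts in the 3 untreated and 12 in the 3 treated libraries. That is 0.756, 1.12 and 0.859 CPM without treatment and 0.358, 0.408 and 0.870 CPM with it. The groups overlapped through treated 3, and no difference was detectable at this depth.

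The remaining genes differed little. *Rgs19* (ENSMUSG00000002458.13, chromosome 2, 181688419 to 181693977, minus strand), which acts on Gi alpha subunits at membranes, had 20.1, 20.5 and 19.5 CPM without treatment and 21.5, 26.1 and 20.9 CPM with it. The groups were separate, but treated 3 (20.9) lay close to untreated 2 (20.5), and the log2 fold change was 0.19 ± 0.20. *Rgs3* (ENSMUSG00000059810.18, chromosome 4, 62559847 to 62704001, plus strand), which acts on Gi and Gq, had 21.9, 26.3 and 25.4 CPM without treatment and 22.7, 29.2 and 27.0 CPM with it, with means of 24.6 ± 2.32 and 26.3 ± 3.32 (SD, n = 3). Its log2 fold change of 0.10 ± 0.20 was -0.22 after the correction for GC content and length. *Rgs14* (ENSMUSG00000052087.14, chromosome 13, 55369732 to 55384687, plus strand), a scaffold that also binds inactive Gi and Ras-type GTPases, had 8.17, 5.58 and 6.5 CPM without treatment and 5.18, 8.98 and 8.70 CPM with it, and a log2 fold change of 0.18 ± 0.32. In both genes the treated values overlapped the untreated ones.

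**Figure D3:**
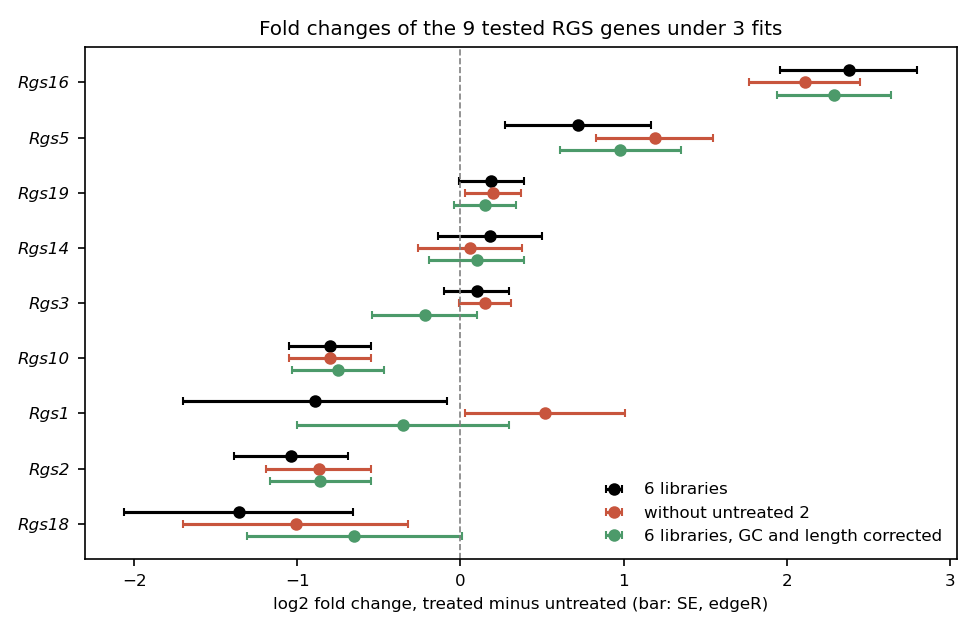
Log2 fold change of treated over untreated tumours (x axis) for the 9 tested RGS genes with all 6 libraries (black), without untreated 2 (red) and with a correction for GC content and length (green); bars are SE from edgeR. *Rgs16* lies between 2.11 and 2.38 and *Rgs10* between -0.80 and -0.75 in the 3 fits, while *Rgs1* lies at -0.89 with untreated 2 and 0.52 without it.

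Levels of different genes were compared per kilobase of the longest annotated transcript. In untreated tumours the order of the mean levels was *Rgs19* (13.3 ± 0.341 CPM per kilobase, SD, n = 3), *Rgs10* (12 ± 0.77), *Rgs2* (6.40 ± 1.30), *Rgs16* (5.38 ± 2.92), *Rgs3* (5.23 ± 0.493), *Rgs14*, *Rgs5*, *Rgs18*, *Rgs1* and *Rgs4* (0.310 ± 0.063). The ranges of neighbours in this order overlapped from *Rgs2* to *Rgs3* and from *Rgs14* down to *Rgs4*. In treated tumours *Rgs16* came first, at 28.4 ± 7.91 CPM per kilobase, ahead of *Rgs19* (15.1 ± 1.90), and neither overlapped its next neighbour. *Rgs10* (6.88 ± 1.03) and *Rgs3* (5.60 ± 0.707) followed with overlapping ranges, and *Rgs2* stood at 3.07 ± 1.21, overlapping *Rgs14*.

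*Rgs16* made up 9.2%, 6.1% and 16.7% of the summed per-kilobase level of the 10 genes without treatment and 44.0%, 33.7% and 48.3% with it. The sum of the other 9 was 45.0 ± 4.63 CPM per kilobase in untreated and 38.8 ± 6.24 in treated tumours (SD, n = 3), with overlapping libraries. A gene transcribed mostly from a shorter isoform reads low on this scale.

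**Figure D4:**
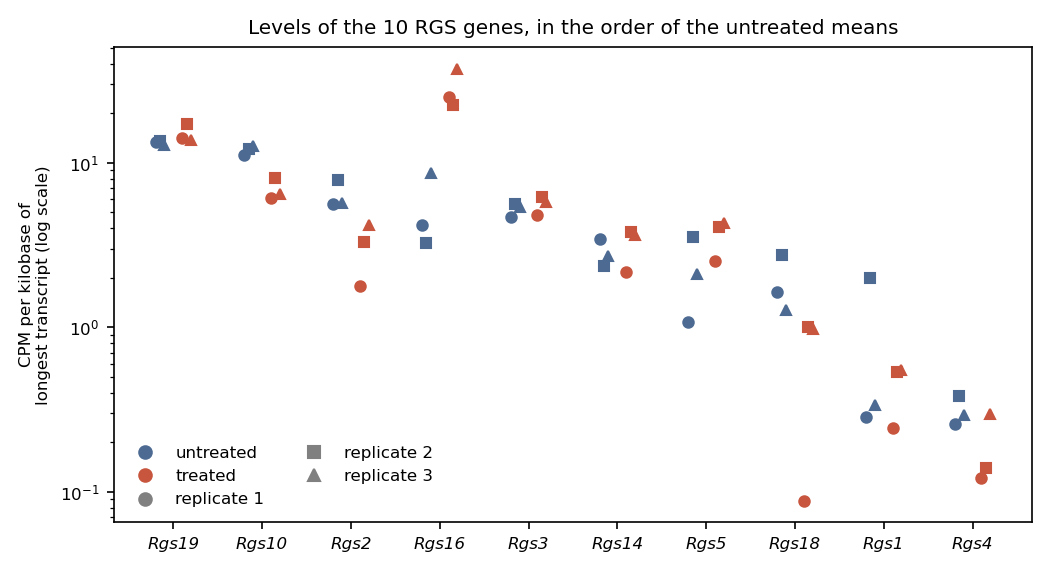
Level per kilobase of the longest transcript (y axis, log scale) of the 10 RGS genes in each library, ordered by the untreated mean; blue, untreated; red, treated; symbols mark the replicate number. *Rgs16* has a mean of 5.38 in untreated tumours and the highest mean of the 10 in treated tumours (28.4), and the lowest point of *Rgs18*, in treated 1, rests on 1 count.

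How far the RGS genes followed the GC content of their transcripts in untreated 2 bears on the values above. *Rgs1* (35.9% GC), *Rgs5* (41.1%) and *Rgs18* (33.4%) lay 2.50, 1.20 and 0.86 log2 above the mean of untreated 1 and 3 in that library. *Rgs16* (53.5% GC) lay at -0.88, and *Rgs10*, *Rgs19* and *Rgs3* (50.7%, 52.5% and 54.3%) lay within 0.16. Over the 9 tested genes, which share these libraries, Pearson's r between GC content and this difference was -0.81. After the GC and length correction the log2 fold changes were 2.29 for *Rgs16*, -0.86 for *Rgs2*, -0.75 for *Rgs10*, 0.98 for *Rgs5* and -0.35 for *Rgs1*.

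**Figure D5:**
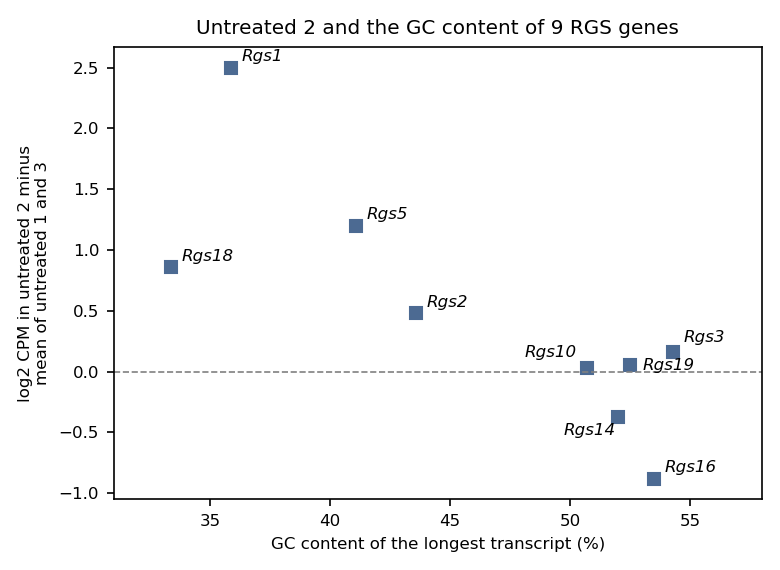
Difference of log2 CPM between untreated 2 and the mean of untreated 1 and 3 (y axis) against the GC content of the longest transcript (x axis) for the 9 tested RGS genes, 1 point per gene. The GC-poor genes *Rgs1*, *Rgs5* and *Rgs18* lie 0.86 to 2.50 log2 above 0 and *Rgs16*, at 53.5% GC, lies at -0.88.

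The other 11 *Rgs* genes were mostly scarce. *Rgs6* and *Rgs21* had 0 counts in every library, which allows up to 0.0747 CPM over the 6 libraries (3 counts, counting error only), and *Rgs7*, *Rgs9* and *Rgs22* had 1 to 10 counts in all. Of the 4 that were tested, 3 were higher and 1 lower, and none was called by edgeR or DESeq2. *Rgs11*, of the group that works in nerve cells with the beta subunit Gnb5, had 3.18, 1.79 and 2.82 CPM without treatment and 0.715, 1.09 and 0.995 CPM with it, a log2 fold change of -1.46 ± 0.43. *Rgs20*, a relative of *Rgs19*, had 2.87, 0.446 and 2.58 CPM without treatment and 4.29, 3.54 and 5.35 CPM with it (1.1 ± 0.57). Neither overlapped between the groups, where 20.8% of the tested genes did not overlap. *Rgs11* had 4, 8 and 8 counts with treatment. Untreated 2 was the lowest library in *Rgs20*, at 2 counts. Without untreated 2 the log2 fold changes were 0.68 for *Rgs20* and -1.65 for *Rgs11*. *Rgs12* (0.15 ± 0.35) and *Rgs17* (0.12 ± 0.31) overlapped, and *Rgs12* turned to -0.16 without untreated 2. *Rgs17* had 17.2, 33.9 and 17.1 CPM without treatment and 25.0, 25.2 and 23.6 CPM with it, and rose to 0.51 ± 0.15 without untreated 2.

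The rest of the G protein pathway was described by lists. Over those of subunits, receptors, receptor kinases, modulators, effectors, other *Rgs* and RGS-domain genes and cAMP-responsive genes, 98 genes were tested. Of these 52 were higher and 46 lower, with a median log2 fold change of 0.02 beside 0.00 over the tested genes, and edgeR called 0 in either direction (background 0%). At an unadjusted p under 0.05 there were 9, beside 8.17% of the tested genes, a share near the background. DESeq2 called 1 of them, *Fosb* (background 0.455%), and without untreated 2 it called *Nr4a1* higher and *Grk5* lower (background 0.896% higher, 1.23% lower and 2.13% in either direction). Of 32 genes named from the lists or tested among the other *Rgs* genes, 5 turned direction without untreated 2: *Gnai3*, *Ccdc88a*, *Crem*, *Axin1* and *Rgs12*.

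Alpha subunits, the targets of RGS proteins, had 6 of 11 tested genes higher and a median log2 fold change of 0.00. *Gnai3*, a Gi subunit, had 276.6 ± 26.9 CPM in treated against 407.5 ± 243.0 in untreated tumours (SD, n = 3), with 688.0 CPM in untreated 2 and 260.8 and 273.7 in untreated 1 and 3. Its log2 fold change of -0.56 was 0.04 without untreated 2. *Gna15*, a Gq-class subunit of blood cells, had 2.69 ± 0.875 against 3.75 ± 0.260 CPM. In the other direction *Gnas*, the Gs subunit, had 746.1 ± 11.4 against 652.7 ± 90.6 CPM and *Gnat2*, the cone transducin, 2.86 ± 1.05 against 2.13 ± 0.669 CPM.

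Of the beta and gamma subunits 4 of 13 were higher. *Gng7* had 6.66 ± 0.793 CPM in treated against 4.10 ± 0.970 in untreated tumours, without overlap (log2 fold change 0.70 ± 0.31), and *Gng2* had 11.1 ± 3.05 against 15.5 ± 3.0 CPM. Effectors had 8 of 12 genes higher, with *Adcy3*, an adenylyl cyclase, at 6.46 ± 3.34 against 3.29 ± 1.56 CPM and *Plcb3*, a phospholipase activated by Gq, at 160.2 ± 12.1 against 123.1 ± 45.7 CPM. *Plcb1* (39.5 ± 2.57 against 46.4 ± 11.8 CPM) and *Adcy7* (259.0 ± 53.2 against 292.3 ± 28.1 CPM) lay the other way, and all 4 effectors overlapped between the groups.

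Receptor kinases and arrestins, which switch off the receptors, had 4 of 7 genes higher. *Grk4* had 4.59 ± 0.722 CPM in treated against 7.17 ± 1.56 in untreated tumours, without overlap. *Grk5* had 27.3 ± 2.98 against 39.0 ± 14.5 CPM, with 23.0 in untreated 2 and 51.4 and 42.4 in untreated 1 and 3. With untreated 2 left out, DESeq2 gave *Grk5* a log2 fold change of -0.79 ± 0.21 (adjusted p = 0.018). DESeq2 did not call *Grk5* with all libraries, where edgeR's quasi-likelihood test gave it an adjusted p of 0.616. *Arrb1* (59.8 ± 17.2 against 36.6 ± 18.0 CPM) and *Grk6* (111.1 ± 12.3 against 73.9 ± 32.4 CPM) lay the other way, and untreated 2 was the lowest library in both. Among other modulators, 3 of 7 were higher, with *Gpsm3* at 15.4 ± 2.58 against 11.2 ± 4.13 CPM and *Ccdc88a* at 143.4 ± 19.9 against 167.2 ± 45.5 CPM. *Ccdc88a* was highest in untreated 2 (219.6 CPM), and its log2 fold change of -0.22 was 0.02 without it.

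The genes for RGS-domain proteins of other families and for RGS partners had 2 of 6 tested genes higher. *Snx25* (29.2 ± 3.49 against 41.9 ± 15.5 CPM) and *Snx13* (72.3 ± 9.71 against 94.6 ± 21.3 CPM), both sorting nexins, were highest in untreated 2. *Axin1*, a scaffold of the Wnt pathway (96.7 ± 9.25 against 78.2 ± 33.3 CPM), was lowest there and turned from 0.30 to -0.02 log2 without it, and *Akap10* had 39.6 ± 4.17 against 37.0 ± 2.40 CPM.

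Of 29 tested receptors 15 were higher and 14 lower. *Lpar4*, a receptor for lysophosphatidic acid, had 49.0, 150.4 and 29.6 CPM without treatment and 21.1, 22.7 and 12.2 CPM with it. *Ccr2*, a chemokine receptor of monocytes, had 68.7, 187.5 and 40.7 CPM without treatment and 32.4, 40.7 and 26.1 CPM with it. Both were highest in untreated 2, and treated values lay below the untreated ones, for *Ccr2* by a margin under 1 CPM. The log2 fold changes were -2.03 for *Lpar4* and -1.58 for *Ccr2*, or -1.08 and -0.73 without untreated 2. *S1pr3*, a receptor for sphingosine 1-phosphate, had 1.51, 1.56 and 6.38 CPM without treatment and 5.18, 13.2 and 15.5 CPM with it, with overlap, and *Cxcr2*, a neutrophil chemokine receptor, 5.08 ± 1.42 and 8.90 ± 2.35 CPM.

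The list of genes that respond to cAMP, the messenger that Gs raises and Gi lowers, had 7 of 9 tested genes higher. Their median log2 fold change was 0.61. Levels of cAMP were not measured, and its part in these values was not tested. *Nr4a1*, a nuclear receptor, had 2.87, 2.23 and 6.62 CPM without treatment and 7.51, 15.5 and 29.3 CPM with it, and the DESeq2 fit without untreated 2 gave it an adjusted p of 0.0418. DESeq2 did not call *Nr4a1* with all libraries, where edgeR's quasi-likelihood test gave it an adjusted p of 0.592. *Fosb*, a subunit of AP-1, had 6.66, 1.56 and 8.34 CPM without treatment and 10.9, 74.0 and 151.1 CPM with it. Treated 1 lay close to untreated 3. The log2 fold change was 3.79 ± 0.98, with an adjusted p of 0.592 in edgeR's quasi-likelihood test. DESeq2 gave an adjusted p of 0.00604 with all libraries but did not call *Fosb* without untreated 2. *Pde4b*, a phosphodiesterase that breaks down cAMP (36.4 ± 2.78 against 44.2 ± 5.25 CPM), and *Crem*, a repressor of cAMP responses (9.76 ± 0.741 against 11.1 ± 3.47 CPM), lay the other way, but *Crem* turned from -0.18 to 0.07 log2 without untreated 2, where it was highest. *Rgs16* was highest in treated 3, as were *Fosb* and *Nr4a1*, but lower in treated 2 than in treated 1, where those genes were lowest among the treated libraries.

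Among named protein-coding genes of at least 5 CPM, those most like 4 RGS genes with the largest fold changes over the 6 libraries are given as a description, by Pearson's r of log2 CPM, with no p. Genes were ranked on the same 6 libraries and 10344 candidates, so values near 1 are easily reached: 89 genes had an r of at least 0.95 with *Rgs16*, 22 with *Rgs18*, 19 with *Rgs2* and 85 with *Rgs1*. *Rgs16* was most like *Ahr*, the aryl hydrocarbon receptor, and *Bcat1*, an enzyme of branched-chain amino acid breakdown (r of 0.993 for both). *Bcat1* had 29.9, 23.7 and 39.7 CPM without treatment and 67.4, 56.7 and 80.1 CPM with it, the same order of libraries as *Rgs16*. *Rgs2* was most like *Cbr2*, a carbonyl reductase (0.988), and *Ndufv3*, a subunit of mitochondrial complex I (0.979). *Cbr2* had 14.9 ± 4.13 CPM in treated against 29.7 ± 6.35 in untreated tumours. *Rgs18* was most like *Fuca2*, a fucosidase (0.990), and *Eif4ebp3*, a repressor of translation (0.989), and *Rgs1* like *Klhl22* (0.994) and *Ifi204*, an interferon-inducible gene (0.988), both highest in untreated 2.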

How the data were processed

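Total RNA of 6 tumours was taken with Trizol and made into strand-keeping libraries, per the labels' protocols. The authors deposited whole-number counts for each gene symbol, and these entered the fits unchanged. TopHat and mm10 are named in the submitters' processing notes. Not given in the sources used here are the counter, whether it used strand, and its annotation, so gene models overlapping *Rgs3*, *Rgs10* and *Rgs16* in GENCODE M21 could share reads with them.

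Samples were grouped by title. The RGS genes and the other lists were chosen with earlier results of these data known. In edgeR 4.0.16 (R 4.3.3), filterByExpr with a smallest count of 10 kept 12517 genes, counts were scaled by TMM, and groups were compared with the 2-sided quasi-likelihood test, Benjamini-Hochberg adjusted over the tested genes. An SE is the log2 fold change over the root of F. Every pair of libraries differed by more than sampling noise (chi-square). Genes named from a list are its 2 of smallest p plus at most 2 that lay in the opposite direction. Nearest genes were sought for the 4 tested RGS genes with the largest absolute fold change (log2 CPM with a prior count of 2). Coordinates, lengths and GC content are from GENCODE M21 (longest transcript). 99.3% of tested genes had a GC value.

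Alternatives were DESeq2 1.42.0, limma-voom 3.58.1 with and without sample weights, other scalings and filters, leaving out each library, the replicate number as a block, and a loess correction for GC content and length (span 0.3). Added after seeing the data were DESeq2 without untreated 2, edgeR values without it for the named pathway genes, the ratio to macrophage markers, the 6-marker pericyte sum, and the GC and TATA box searches.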

Additional observations from a re-analysis of the deposited data

How the results depend on the processing

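Of 160 log2 fold changes of single RGS genes under the 18 alternatives, 153 kept their direction and their side of the threshold. *Rgs1* turned to 0.41 with limma-voom sample weights, to 0.52 with DESeq2 without untreated 2, and ranged from -1.34 to 0.52 when 1 library was left out. *Rgs3* turned to -0.22 with the GC and length correction and to -0.16 with that correction and the replicate block, and the median of the 9 tested genes to -0.22 and -0.15; the cause was not tested. DESeq2 called 18 genes higher and 39 lower over the table, 1 RGS gene among the higher ones; without untreated 2 it called 115 and 158, again with 1 RGS gene higher. Limma-voom with sample weights called 1 gene higher and 1 lower. Leaving out 1 library in edgeR gave 0 to 4 genes lower, the 4 without untreated 3, and no RGS gene. With the replicate number as a block edgeR called 0 genes and gave *Rgs16* a log2 fold change of 2.48; same-numbered libraries deviated from their group means with correlations of -0.179, -0.115 and 0.093, so the numbers were not taken as pairs. At these depths *Rgs1*, *Rgs4* and *Rgs18* are limited by counting error, which is not small in *Rgs10* either.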

Other observations

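Several of the RGS genes are neighbours on chromosome 1, which the choice of genes did not use. *Rgs2*, *Rgs13*, *Rgs1*, *Rgs21* and *Rgs18* lie in this order within 776.1 kb, with no other annotated protein-coding gene of the tables between them. *Rgs2* and *Rgs18* were low in treated tumours, as described. *Rgs13*, named after its values were seen, had 8 counts in the untreated libraries (0.303, 1.12 and 0.123 CPM in untreated 1, 2 and 3) and 0 in the treated ones. Against a floor of 3 counts over the treated group that is 2.89-fold lower, with the counting error of the 8 left out. Untreated 2 gave 5 of the 8 counts. *Rgs1* went both ways with and without untreated 2, and *Rgs21* was at 0 throughout. *Uchl5*, a deubiquitinase gene within 200 kb, had 41.2 ± 8.66 CPM with and 32.8 ± 7.70 without treatment (SD, n = 3), with overlap.

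*Rgs8* lies 40.0 kb before *Rgs16*. It had 0 counts in the 3 untreated libraries and 9 in the treated ones (0.715, 0.272 and 0.373 CPM in treated 1, 2 and 3). Against a floor of 3 counts over the untreated group that is 2.77-fold higher, with the counting error of the 9 left out. *Rgs8* was named after its values were seen and did not pass the filter. Among other protein-coding genes within 200 kb of *Rgs16*, *Glul*, glutamine synthetase, had a log2 fold change of 0.15 ± 0.25 and *Npl* one of -0.66 ± 0.54, both with overlapping groups. *Teddm1b*, chosen for its values, had 0.975 ± 0.286 CPM with and 0.238 ± 0.246 without treatment (SD, n = 3). With so few counts in *Rgs8* and *Rgs13*, whether neighbours move together was not tested.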
